A study of Mus musculus with 8 samples.

Results

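The smooth muscle contraction genes and the oxytocin receptor are 10 of the 27998 genes counted in single cells of the mouse mammary gland. They were taken as listed symbols, whatever their levels: *Oxtr*, the receptor for the pituitary hormone oxytocin, *Acta2* and *Actg2*, the smooth muscle actins, *Myh11*, the smooth muscle myosin heavy chain, *Mylk*, the myosin light chain kinase, *Myl9*, a regulatory myosin light chain, and *Cnn1*, *Tagln*, *Tpm2* and *Lmod1*, which bind actin filaments. Each of the 10 symbols matched 1 gene ID. Droplet-based single-cell RNA sequencing was carried out on EpCAM+ epithelial cells, depleted of cells with the endothelial marker CD31, the leucocyte marker CD45 or the erythroid marker Ter119, from 8 female C57BL/6N mice, 1 mouse per library and 2 mice per stage. The nulliparous mice (NP) were 8 weeks old, the gestating mice (G) were at day 14.5, the lactating mice (L) were at day 6 and the post-involution mice (PI) were taken 11 days after weaning. NP1, NP2 and PI2 were in oestrus and PI1 was in dioestrus. The comparisons asked how the contractile program of the basal lineage differs along this cycle of pregnancy, milk production and regression, and whether the state after involution differs from that before pregnancy.

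In the gland, suckling releases oxytocin, which acts through a receptor coupled to Gq on the myoepithelial cells that wrap the alveoli and ducts. Calcium released from internal stores binds calmodulin and activates the myosin light chain kinase, which phosphorylates the regulatory light chain so that myosin pulls on actin and milk is ejected. Myoepithelial cells are epithelial, carry basal keratins, and share this contractile machinery with smooth muscle, in which serum response factor binds a DNA element named the CArG box before many of the same genes.

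The bases before the gene start are shown for *Myl9*, *Lmod1* and *Oxtr* because the levels of these genes followed different courses. In basal cells *Myl9* rose strongly already from NP to G, *Lmod1* had the smallest range of the 10 genes, and *Oxtr* did not pass the test until L. The sequences are from the RefSeq table of promoters on GRCm38.p6, read 5′ to 3′ on the strand of the gene, and only the bases that also lie before the gene in GENCODE M21 are printed. They are chr2:156775214-156775419, forward strand, for *Myl9*, chr1:135324563-135324806, forward strand, for *Lmod1* and chr6:112489944-112490075, reverse strand, for *Oxtr*. Capitals mark matches to the 10-base CArG box with up to 1 mismatch, and since the motif reads the same on both strands, 1 search covers both.
Myl9: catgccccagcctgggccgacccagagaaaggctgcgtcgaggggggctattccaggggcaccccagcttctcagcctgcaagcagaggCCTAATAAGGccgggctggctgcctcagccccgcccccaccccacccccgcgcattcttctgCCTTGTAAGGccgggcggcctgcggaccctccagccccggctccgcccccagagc
Lmod1: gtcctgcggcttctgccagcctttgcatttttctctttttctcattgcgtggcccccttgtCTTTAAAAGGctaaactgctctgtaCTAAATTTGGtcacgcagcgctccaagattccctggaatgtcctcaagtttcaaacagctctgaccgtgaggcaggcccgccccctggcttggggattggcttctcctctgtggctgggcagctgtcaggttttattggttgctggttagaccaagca
Oxtr: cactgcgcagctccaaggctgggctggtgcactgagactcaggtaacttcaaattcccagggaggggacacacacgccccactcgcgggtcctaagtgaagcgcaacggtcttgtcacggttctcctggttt
The search itself covered the 250 bases before the RefSeq start, which held an entry for 7 of the 10 genes and none for *Actg2*, *Myh11* and *Tagln*. An exact CArG box lay in 1 of the 7, that of *Myl9*, the first of its 2 marked matches, against 1.47% of all 32851 stretches of this length. With up to 1 mismatch, *Acta2*, *Myl9* and *Lmod1* each held 2 matches, so that 3 of 7 matched, against 18.6% of all stretches. Those of *Acta2*, CCCTATATGG and CCTTGTTTGG, began 84 and 34 bases before its RefSeq start, in bases that GENCODE M21 counts to its first exon. Those of *Myl9* began 161 and 99 bases and those of *Lmod1* 189 and 164 bases before the start. A match describes letters in this window, and its absence from the window of *Oxtr* says nothing about the factor.

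Of 25806 cells in the authors' annotation, 25009 that passed their quality filter were joined to the counts, and of these 23183 lay in their clusters C1 to C15 and 9750 in the basal clusters C12, C13 and C14. No barcode was shared between libraries among passing cells. The libraries held 13306760 to 34552742 transcript counts (UMIs, unique molecular identifiers) in passing cells, with a median of 3770 to 9624 per cell. For each library, the UMIs of its basal cells were summed and expressed as counts per 1000000 UMIs of that sum (CPM). NP basal cells (504 and 283) lay almost wholly in C12, G basal cells (528 and 604) in C13, and L basal cells (4639 and 3105) in C14. The PI libraries held 28 and 59 basal cells, of which 27 and 53 lay in C12, and these few cells limit every PI value. Clusters C12, C13 and C14 were named by the authors with *Acta2* among their genes, and C14 also with *Oxtr*. The presence of the contractile genes there is therefore not a finding. The basal markers *Krt5*, *Krt14*, *Krt17* and *Trp63* summed to 7008 to 13407 CPM in the 8 basal sums. Other markers differed between the stages compared. Luminal keratins and *Cldn4* summed to 4684 and 3050 CPM in NP, 887 and 926 CPM in G, 2115 and 1401 CPM in L and 2465 and 5697 CPM in PI, and so were lower in G than in NP, where most of the contractile genes were higher. The 6 fibroblast markers summed to 177 and 264 CPM in NP, 901 and 672 CPM in G, 649 and 509.7 CPM in L and 69.9 and 166 CPM in PI, where 4 and 2 of them were at 0. The 10 pericyte and vascular smooth muscle markers summed to 42.3 to 198 CPM, the highest being L1. The endothelial markers *Pecam1*, *Cdh5* and *Emcn* were at 0 in both PI sums, where *Eng* was not. Among the leucocyte markers *Cd74* reached 831 CPM in PI1 and 28.8 CPM in PI2. The other 3, *Ptprc*, *Laptm5* and *Tyrobp*, were at 0 in both PI sums. The part of these other cells in the results was not tested.

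In basal cells, all 10 genes were highest in lactation. *Oxtr* and *Tpm2* did not pass between NP and G and rose 11.3-fold and 4.91-fold from G to L. *Mylk*, *Myl9*, *Myh11*, *Actg2*, *Acta2* and *Cnn1* rose 2.12- to 5.25-fold already from NP to G and rose again in L. After involution all 10 genes were lower than in L, and *Oxtr*, *Acta2*, *Actg2*, *Tagln* and *Tpm2* were lower than in NP. Since these are levels within the summed basal cells, a change in the mix of basal cells and a change of the RNA per cell cannot be told apart.

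**Figure D1:**
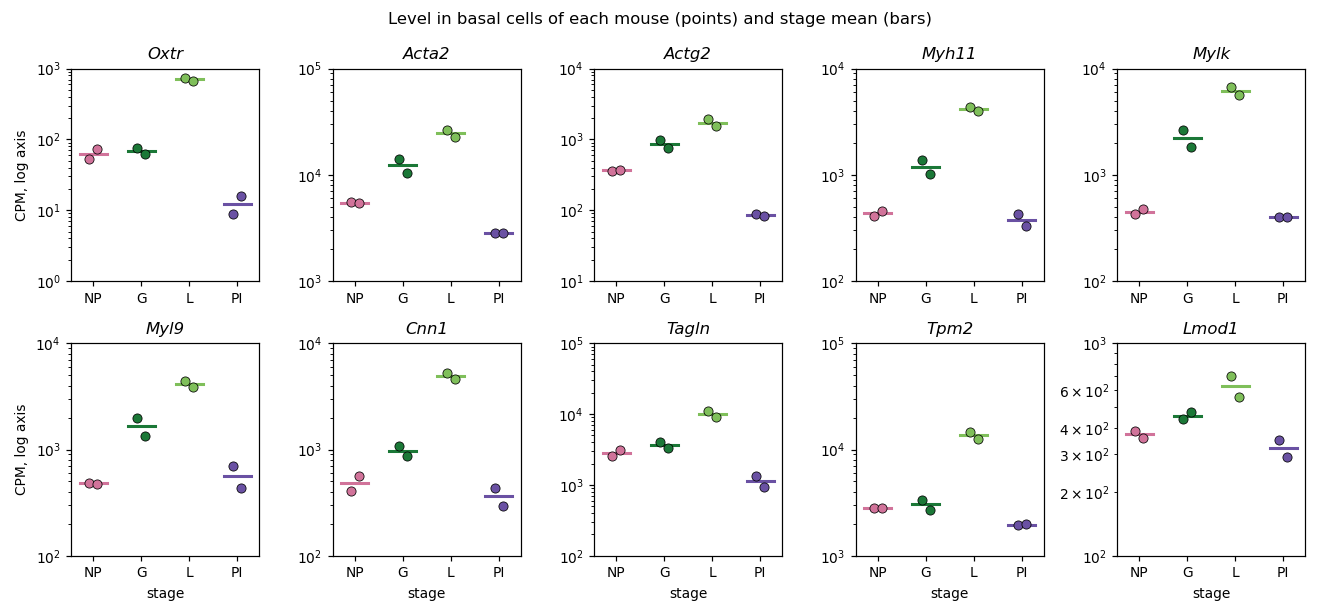
Level of each of the 10 genes in the summed basal cells of each library, in CPM on a log axis. Each mouse has 1 point and a line marks the mean of the 2 mice of each stage. Counting error is not drawn. The L mice lie highest in every panel, and the *Oxtr* points of PI1 and PI2 rest on 1 and 5 UMIs.

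*Oxtr* (chr6:112473683-112489943, reverse strand, GRCm38 with GENCODE M21, the release for all gene positions given here) measured 52.2 and 72.4 CPM in NP, 74.7 and 61.7 CPM in G, 743 and 672 CPM in L, and 8.74 and 16 CPM in PI. The NP and G mice overlapped, both L mice lay far above all others, and both PI mice lay below all others. The PI1 value rested on 1 UMI, for which the 95% Poisson interval ran from 0.221 to 48.7 CPM, and the PI2 value on 5 UMIs, from 5.19 to 37.3 CPM. These intervals cover counting error only. The log2 difference from NP to G was 0.23 ± 0.18, adjusted p = 0.330, which did not pass, by edgeR's quasi-likelihood test adjusted over all 11870 genes tested with the Benjamini-Hochberg method. From G to L it was 3.50 ± 0.18, adjusted p = 3.10e-10, and from L to PI it was -6.00 ± 0.35, adjusted p = 2.63e-09, both larger than the spread between mice.

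The 2 smooth muscle actins rose at both steps. *Acta2* (chr19:34241090-34255590, reverse strand), the actin by which myoepithelial cells are commonly stained, measured 5568 and 5371 CPM in NP, 14205 and 10456 CPM in G, 26568 and 22784 CPM in L, and 2824 and 2847 CPM in PI. *Actg2* (chr6:83512905-83536265, reverse strand), the actin of visceral smooth muscle, measured 361 and 374 CPM in NP, 973 and 758 CPM in G, 1934 and 1527 CPM in L, and 87.4 and 83.2 CPM in PI. For both genes the mice of the 4 stages did not overlap, in the order L, G, NP and PI. From NP to G the log2 difference was 1.25 ± 0.15, adjusted p = 8.86e-06, for *Acta2* and 1.31 ± 0.16, adjusted p = 8.30e-06, for *Actg2*, and from G to L it was 1.13 ± 0.15 and 1.13 ± 0.15. PI lay below NP, with log2 differences of -1.11 ± 0.15, adjusted p = 4.35e-04, for *Acta2* and -2.26 ± 0.25, adjusted p = 3.88e-05, for *Actg2*. The 2 actins are close in sequence, which bears on how reads are split: over the last 500 bases of the *Actg2* transcript, 420 columns aligned to *Acta2* at 84.8% identity, and the longest run shared by the last 500 bases of both was 8 bases. These ends are unlike stretches, with 577 bases after the stop codon in *Acta2* and 80 in *Actg2*. Over the whole transcripts the longest shared run was 29 bases.

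The motor and its activator had the 3 largest steps of the list from NP to G. *Myh11* (chr16:14194535-14291372, reverse strand), the heavy chain that hydrolyses ATP, measured 406 and 459.8 CPM in NP, 1377 and 1016 CPM in G, 4332 and 3947 CPM in L, and 428 and 326 CPM in PI. *Mylk* (chr16:34745210-35002420, forward strand), the kinase that switches the motor on, measured 425 and 473 CPM in NP, 2661 and 1816 CPM in G, 6737 and 5656 CPM in L, and 402 and 397 CPM in PI. *Myl9* (chr2:156775420-156781658, forward strand), a light chain that the kinase phosphorylates, measured 486 and 478 CPM in NP, 1971 and 1345 CPM in G, 4391 and 3853 CPM in L, and 699 and 438 CPM in PI. The NP and PI mice overlapped for *Myh11* and *Myl9* and lay close together for *Mylk*, and both G mice lay above both, below both L mice. The step from NP to G was the largest of the 10 genes for *Mylk*, 2.39 ± 0.18, adjusted p = 6.00e-08, followed by *Myl9*, 1.86 ± 0.18, adjusted p = 1.20e-06, and *Myh11*, 1.54 ± 0.16, adjusted p = 2.25e-06. From G to L the log2 differences were 1.60 ± 0.17 for *Mylk*, 1.44 ± 0.18 for *Myl9* and 1.92 ± 0.16 for *Myh11*, all past the test. *Mylk* overlaps a gene on the opposite strand that is also in the count files.

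For the 4 genes that bind actin filaments the log2 difference from G to L was larger than that from NP to G, although the 2 steps were not tested against each other. *Cnn1* (chr9:22099216-22109630, forward strand), calponin, measured 404 and 564 CPM in NP, 1079 and 868 CPM in G, 5215 and 4565 CPM in L, and 437 and 294 CPM in PI. *Tagln* (chr9:45929619-45936058, reverse strand), transgelin, measured 2567 and 3122 CPM in NP, 4002 and 3268 CPM in G, 10992 and 9236 CPM in L, and 1355 and 934 CPM in PI. For *Cnn1* the NP and PI mice overlapped, while for *Tagln* the stages did not overlap, in the order L, G, NP and PI. *Tpm2* (chr4:43514711-43523765, reverse strand), a tropomyosin that lies along the filament, measured 2826 and 2827 CPM in NP, 3379 and 2705 CPM in G, 14711 and 12598 CPM in L, and 1941 and 1977 CPM in PI. Its NP and G mice overlapped, as those of *Oxtr* did. *Lmod1* (chr1:135324807-135368065, forward strand), leiomodin, which nucleates actin filaments, measured 388 and 357 CPM in NP, 438 and 472 CPM in G, 699.5 and 559 CPM in L, and 349.7 and 291 CPM in PI, the smallest range of the 10 genes. From NP to G, *Cnn1* rose by 1.08 ± 0.18, adjusted p = 1.57e-04, on the log2 scale, whereas *Tpm2* at 0.18 ± 0.14, adjusted p = 0.324, did not pass. *Tagln* (0.43 ± 0.16, adjusted p = 0.0449) and *Lmod1* (0.36 ± 0.14, adjusted p = 0.0488) passed narrowly. From G to L the log2 differences were 2.46 ± 0.18 for *Cnn1*, 2.29 ± 0.15 for *Tpm2*, 1.60 ± 0.17 for *Tagln* and 0.60 ± 0.14 for *Lmod1*, all past the test. *Tagln* overlaps *Pcsk7* on the opposite strand. The 9 contractile genes without *Oxtr* together took 1.34% and 1.4% of the basal UMIs of the NP mice, 3.01% and 2.27% of those of the G mice, 7.56% and 6.47% of those of the L mice, and 0.852% and 0.759% of those of the PI mice.

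**Figure D2:**
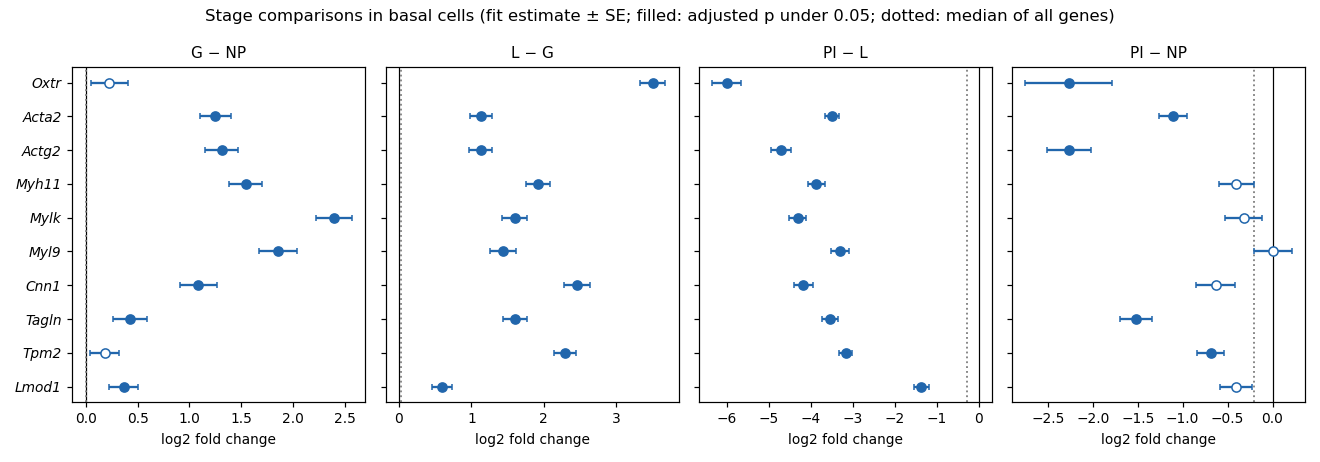
Log2 fold change of the 10 genes in basal cells for the 4 stage comparisons, with bars of 1 standard error; filled points passed the adjusted threshold of 0.05 and open points did not. The points for G against NP spread from 0.18 to 2.39, those for L against G all lie above 0, and those for PI against L all lie below 0.

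Comparing G with NP, 8 of the 10 genes were higher and none was lower in G, at a median log2 difference of 1.17. Of all genes tested in basal cells, 39.9% passed in either direction, 21% higher and 18.9% lower, at a median of 0.01. The calls of *Tagln* and *Lmod1* depended on single mice: *Tagln* lost its call without NP1 (0.27, adjusted p = 0.323) or without G1 (0.27, adjusted p = 0.340), and *Lmod1* without any 1 of the 4 mice (0.33 to 0.42, adjusted p = 0.0926 to 0.196). With 28 basal cells per library, *Lmod1* again did not pass (0.61, adjusted p = 0.0863), whereas *Tpm2* did (0.66, adjusted p = 0.0234).

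Comparing L with G, all 10 genes were higher in L, by 0.60 for *Lmod1* to 3.50 for *Oxtr* on the log2 scale, with a median of 1.60. Of all genes 50.1% passed, 25.2% higher and 24.9% lower, at a median of 0.03. Every one of the 10 calls held when any 1 of the 8 mice was left out, but that of *Lmod1* was lost with 28 basal cells per library (0.39, adjusted p = 0.297). The 10 pericyte and vascular smooth muscle markers differed between the L mice, summing to 198 CPM in L1 and 99.6 CPM in L2. Of these *Rgs5* stood at 76.1 CPM in L1 and 14.9 CPM in L2. *Des* alone went the other way, at 18.4 CPM in L1 and 30.6 CPM in L2. The 10 contraction genes were higher in L1 than in L2 by 0.13 to 0.34 on the log2 scale. A link between the 2 differences was not tested.

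Comparing PI with L, all 10 genes were lower in PI. The log2 differences were -6.00 ± 0.35 for *Oxtr*, -4.70 ± 0.23 for *Actg2*, -4.31 ± 0.21 for *Mylk*, -4.18 ± 0.22 for *Cnn1*, -3.86 ± 0.20 for *Myh11* and -3.55 ± 0.19 for *Tagln*. *Acta2* fell by 3.49, *Myl9* by 3.29, *Tpm2* by 3.16 and *Lmod1* by 1.37 on the same scale, with standard errors of 0.16 to 0.21. Of all genes 27.6% passed, 15.3% lower and 12.3% higher, and the median of all genes was -0.26, so differences from L to PI are to be read against that shift. The comparison with NP had a shift of -0.20.

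Comparing PI with NP, the actins, *Tagln*, *Tpm2* and the receptor were lower after involution, while the motor genes did not pass in either direction. *Oxtr* was lower (-2.27 ± 0.48, adjusted p = 0.0112), *Actg2* (-2.26), *Tagln* (-1.52 ± 0.18, adjusted p = 6.83e-05), *Acta2* (-1.11) and *Tpm2* (-0.69 ± 0.15, adjusted p = 0.0120), all on the log2 scale. These 5 of 10 compare with 4.47% of all genes that passed, 2.54% lower and 1.92% higher. The others gave -0.63 ± 0.22 (adjusted p = 0.113) for *Cnn1*, -0.41 ± 0.18 for *Lmod1*, -0.40 ± 0.19 for *Myh11*, -0.32 ± 0.20 for *Mylk* and 0.01 ± 0.21 for *Myl9*. The 95% interval of the *Myl9* difference, from -0.43 to 0.45, leaves room for a change either way. The call of *Oxtr* was lost without PI1 (-2.07, adjusted p = 0.0747) or without PI2 (-3.02, adjusted p = 0.239), that of *Tpm2* likewise (-0.65, adjusted p = 0.0559 and -0.76, adjusted p = 0.0788), and *Cnn1* passed without NP1 (-0.88, adjusted p = 0.0348). With 28 basal cells per library *Oxtr* (-1.77, adjusted p = 0.106) and *Tpm2* (-0.28, adjusted p = 0.472) were not called. With every stage restricted to its main basal cluster, *Myh11* (-0.77, adjusted p = 0.0375) and *Cnn1* (-0.85, adjusted p = 0.0284) passed as well. The age of the PI mice is not given in the sources used here. Between PI and NP, age, past pregnancy and, for PI1, the stage of the oestrous cycle cannot be told apart. The 4 comparisons share mice, so the course of a gene across them is not independent evidence. The p-values rest on the spread between the 2 mice of each stage, pooled over all 4 stages, with 4 residual degrees of freedom. The test also borrows from the spread of other genes, with a median of 12.9 prior degrees of freedom. An exact permutation test of 2 mice against 2 could not go below p = 0.333.

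The share of basal cells with an *Oxtr* UMI was highest in L, as its level was. Thinned to 1000 UMIs per cell, it was 5.16% and 7.42% for the NP mice, 8.52% and 5.96% for the G mice and 47.6% and 43.3% for the L mice. In PI it was 0 of 28 cells, where a limit of 3 counts allows up to 10.7% of cells with a UMI at this depth, and 5.08% of 59 cells. The PI2 share rested on 3 cells and on the random draw: in a second draw at 1000 UMIs 0 PI2 cells had an *Oxtr* UMI, and at 2000 UMIs 3.39% had one. In luminal cells of the same libraries, the background for a gene at a low level in them, the thinned *Oxtr* share was 0.0616% and 0.117% in NP and 0% and 0.0491% in PI. This background does not stand for G and L, where *Oxtr* in luminal cluster sums reached 36 and 138 CPM. In NP and PI it reached 2.07 and 1.00 CPM. Without thinning the basal *Oxtr* share was 24.8% and 29.7% for the NP mice, 37.7% and 30.6% for the G mice and 3.57% and 6.78% for the PI mice, at median depths of 3701 to 6304 UMIs per basal cell and 5879 to 10808 UMIs per luminal cell over the 8 libraries.

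The shares of cells with the kinase and with the actins took different courses. *Mylk* was seen at 1000 UMIs in 30.2% and 32.2% of NP basal cells, 85.4% and 81% of G basal cells, 98.3% and 98.5% of L basal cells and 25% and 27.1% of PI basal cells. The luminal share of *Mylk* was 0.37% and 0.176% in NP and 0.0709% and 0.221% in PI. *Acta2* was seen in 95.8% and 91.9% of NP basal cells, in all but 1 basal cell of each L library and in 78.6% and 81.4% of PI basal cells, against luminal shares of 5.36% and 1.94% in NP, 72.1% and 50.7% in L and 0.993% and 1.4% in PI. *Actg2* was seen in 29.2% and 29.3% of NP basal cells, 60.4% and 51.7% of G, 75.5% and 67.4% of L and 7.14% and 10.2% of PI, and *Lmod1* in 33.5% and 32.9% of NP and 47.6% and 39.7% of L. In the second draw, the median number of contractile UMIs among 1000 per basal cell was 13 for both NP mice, 30 and 23 for the G mice, 73 and 61 for the L mice, and 7.5 and 6 in PI. In L, basal cells with an *Oxtr* UMI held a median of 75 and 65 contractile UMIs and those without one 71 and 59, in L1 and L2, a small difference that was not tested since cells are not replicates.

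**Figure D3:**
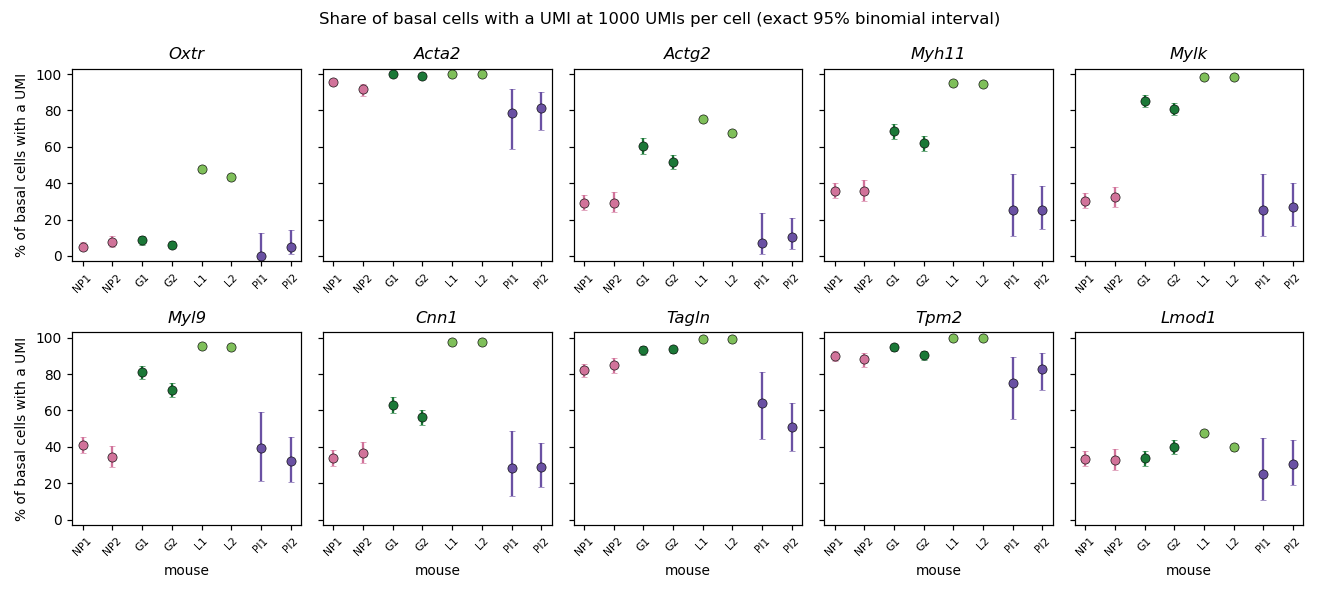
Share of basal cells with at least 1 UMI of each gene, in percent, after thinning every cell to 1000 UMIs, with 1 point per mouse and 95% exact binomial intervals for counting error only. *Acta2* lies at 78.6% or more in every mouse, *Oxtr* lies above 40% in the L mice alone, and the PI points carry wide intervals because they rest on 28 and 59 cells.

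In every luminal cluster sum the 10 genes lay below the basal level of the same library, at no more than 2.86% of it in NP, 18.6% in L and, for *Oxtr* in C10, 48.1% in G. In NP luminal clusters *Acta2* ranged from 24.9 to 65.3 CPM, *Tagln* from 6.13 to 70.3 CPM and *Oxtr* from 0.551 to 2.07 CPM. In L luminal clusters *Acta2* ranged from 621 to 3659 CPM, *Mylk* from 89 to 871 CPM and *Oxtr* from 24.3 to 138 CPM. The highest of these, in C11 of L1, lay above basal sums of other stages, *Acta2* at 3659 CPM above both PI values and *Oxtr* at 138 CPM above both NP values. Basal cells made up 92.2% and 94% of the epithelial cells (C1 to C15) in L, against 23.7% and 14.2% in NP and 1.94% and 1.43% in PI. In the L luminal clusters C9 and C11, the *Oxtr* level was 3.61 to 18.6% of the basal level of its library and the median of the other 9 genes was 2.73 to 13.5%, so that the ratio between the 2 shares stayed at 1.31 to 1.38. Within L cluster C11, the cells with an *Oxtr* UMI also carried more of the contractile genes, 18096 CPM against 3735 CPM in L1 and 13598 CPM against 2027 CPM in L2, and they were deeper, at a median of 9044 against 6180.5 UMIs in L1 and 11718.5 against 6580 in L2. In C9 the values were 5688 CPM against 2501 CPM in L1 and 1766 CPM against 1748 CPM in L2. The clusters of 1 library differed, *Acta2* standing at 1656 CPM in C9 and 3659 CPM in C11 of L1 and at 621 and 2439 CPM in L2. The authors removed clusters C17, C18 and C19 as non-epithelial. In their L sums *Oxtr* stood at 3.00% to 33.3% of the basal level of the same library. The median of the other 9 genes there was 3.07% to 27.0%. The part of free RNA or doublets in these values was not tested.

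**Figure D4:**
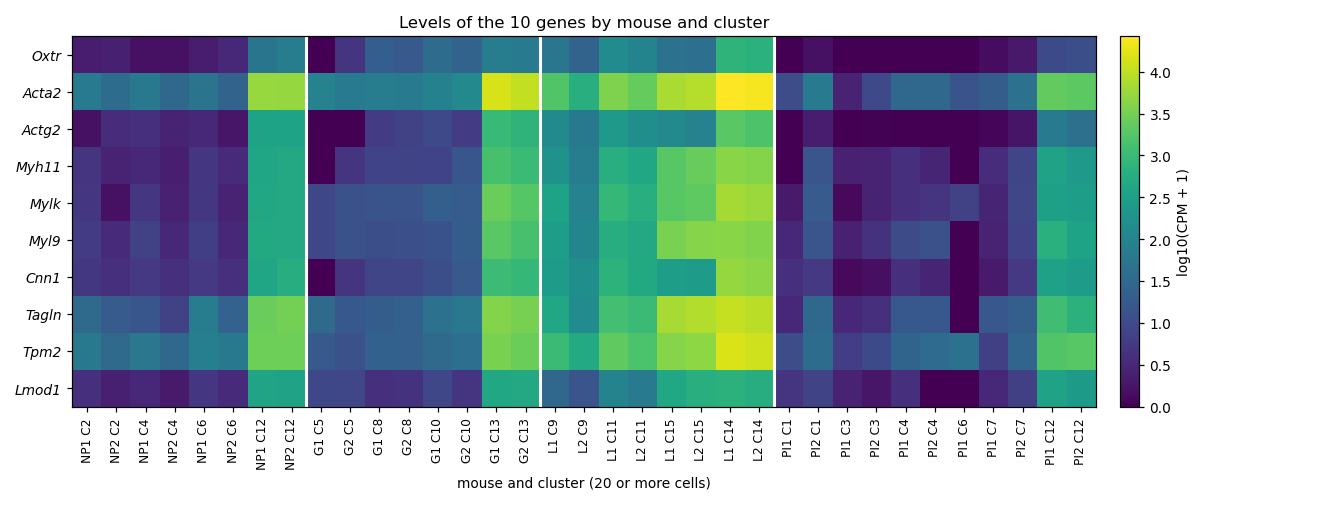
Level of each gene in every cluster and library sum of 20 or more cells in C1 to C15, as log10(CPM + 1), grouped by stage and then by cluster. The basal sums C12, C13 and C14 stand out for all 10 genes, C15 stands out for some of them, and *Oxtr* shows intermediate levels in the G alveolar clusters C8 and C10.

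In the gestation alveolar cells the receptor stood apart from the 9 contractile genes. *Oxtr* stood at 20.4 and 15.9 CPM in the differentiated alveolar cluster C8 (540 and 349 UMIs in G1 and G2) and at 36 and 25 CPM in the alveolar progenitor cluster C10 (47 and 40 UMIs). These were 27.3% and 25.8% of the basal level of the same library in C8 and 48.1% and 40.4% in C10. The other 9 genes there stood at 0.474% to 1.87% of their basal levels. In the hormone-sensing cluster C5 of the same libraries *Oxtr* had 0 and 1 UMI (0 and 3.87 CPM). These sums rested on 20 and 41 cells with 123242 and 258370 UMIs. The C5 level is therefore loosely bounded in each library and was not tested against C8 or C10. The thinned share of cells with an *Oxtr* UMI was 2.08% and 1.76% in C8 and 4.49% and 3.97% in C10, against 8.52% and 5.96% of G basal cells. In C8, 361 of 1926 and 266 of 1818 cells had an *Oxtr* UMI before thinning. Those cells held 203 and 209.8 CPM of the 9 contractile genes, against 146 and 145 CPM in the remaining C8 cells and 30085 and 22703 CPM in basal cells. They were also deeper, at a median of 15914 against 10337 UMIs in G1 and 17050.5 against 8064 in G2, and 69 and 61 of them held no contractile UMI at all. Basal keratin markers summed to 63.8 and 70.5 CPM in C8 and to 85.7 and 174 CPM in C10. The authors removed a cluster of doublets from G, and remaining doublets were not called again here. These differences between clusters are descriptions, since the clusters were made from the same transcripts.

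**Figure D5:**
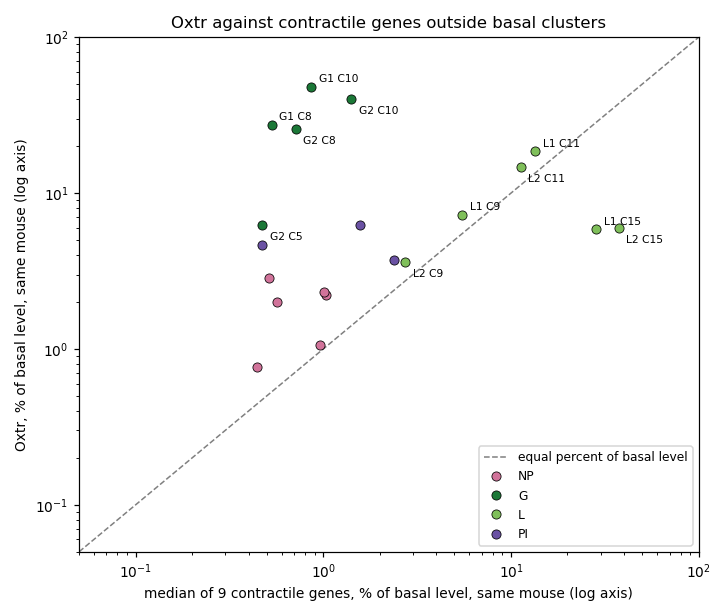
*Oxtr* level against the median level of the other 9 genes, both as percent of the basal level of the same library on log axes, for the 20 sums outside the basal clusters that held an *Oxtr* UMI (of 27); the line marks equal percent. The G sums of C8 and C10 lie far above the line, the L luminal sums lie close to it, and the L sums of C15 lie below it.

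Cluster C15, found almost only in L, carried a different set of the genes. The authors gave it the putative identity of basal cells with the stem-cell marker *Procr*. They also reported the pericyte markers *Des* and *Cspg4* in it, and raised the possibility that its cells are not epithelial. In C15 the basal keratin *Krt14* stood at 297 and 276 CPM, while the pericyte marker *Rgs5* stood at 4288 and 3559.7 CPM and *Des*, desmin, at 815 and 921 CPM. All 10 pericyte and vascular smooth muscle markers were detected in both C15 sums, of 205 and 57 cells, but also in both C14 sums. Their levels differed, summing to 8571 and 7644 CPM in C15 and 198 and 99.6 CPM in C14. *Krt14* stood at 4878 and 5442 CPM in C14 of the same libraries. These values bear on the authors' own doubt about the basal name, and the cluster is called here by its number. The identity of its cells was not tested. *Acta2* was 7376 and 8512 CPM, *Tagln* 7013 and 8187 CPM, *Myl9* 3459 and 4169 CPM and *Myh11* 1899 and 2492 CPM in C15 of L1 and L2. As a share of the basal level of the same library, *Myl9* stood at 78.8% and 108% and *Tagln* at 63.8% and 88.6%. *Cnn1* at 297 and 267 CPM, *Actg2* at 119.5 and 89 CPM and *Oxtr* at 43.5 and 40.0 CPM were lower on this scale, at 5.69% and 5.85% for *Cnn1*, 6.18% and 5.83% for *Actg2* and 5.85% and 5.96% for *Oxtr*. Such low shares were not particular to C15. In the L fibroblast cluster C18 the same genes averaged 3.92%, 4.25% and 4.54%, in that order. In the L endothelial cluster C19 they averaged 5.01%, 3.17% and 3.08%.

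Between NP and PI the same genes were also compared in luminal cells, to ask whether the lower levels after involution were seen outside the basal lineage. In luminal progenitors (C6 and C7), 8 of the 10 genes passed the filter on low counts, of which *Tagln* and *Tpm2* were lower in PI, against 13% of all genes lower and 26.9% called either way. *Tagln* measured 70.3 and 23.2 CPM in NP and 14.6 and 20.7 CPM in PI, and *Tpm2* measured 80.0 and 59.6 CPM in NP and 6.76 and 26.9 CPM in PI. The log2 differences were -1.36 ± 0.36, adjusted p = 0.0173, for *Tagln* and -1.96 ± 0.42, adjusted p = 0.00567, for *Tpm2*, and that of *Tagln* lost its call without NP1 (-0.33, adjusted p = 0.456). With DESeq2 neither gene was called in luminal progenitors, *Tagln* at -1.28 (adjusted p = 0.322) and *Tpm2* at -1.93 (adjusted p = 0.173). In differentiated hormone-sensing cells (C3 and C4), 9 genes were tested and 5 were lower in PI, against 6.65% of all genes lower and 14.3% called either way. *Acta2* measured 61.2 and 28.5 CPM in NP and 4.11 and 9.28 CPM in PI, *Tpm2* 55.2 and 28.7 CPM in NP and 7.12 and 9.53 CPM in PI, and *Tagln* 14.1 and 6.11 CPM in NP and 3.29 and 3.43 CPM in PI. *Cnn1* measured 4.46 and 3.02 CPM in NP and 0.548 and 0.56 CPM in PI, where the PI values rest on 2 and 9 UMIs, and *Actg2* measured 3.05 and 1.65 CPM in NP and 0 and 0.0623 CPM in PI, on 0 and 1 UMI. The log2 differences were -2.56 ± 0.35 for *Acta2*, -2.28 ± 0.28 for *Tpm2*, -2.74 ± 0.45 for *Cnn1* and -1.59 ± 0.36 for *Tagln*, the last not called without NP1 (-0.92, adjusted p = 0.200). The PI libraries held the lowest share of basal cells, and *Acta2* over all cells of a library was 969.8 and 542 CPM in NP and 42.2 and 60.3 CPM in PI. In luminal progenitors of the same libraries *Acta2* differed by -0.18 ± 0.37 (adjusted p = 0.768), and *Myh11* (0.68 ± 0.54), *Mylk* (0.72 ± 0.65) and *Lmod1* (0.42 ± 0.53) did not pass either. The part of the basal RNA in the luminal differences was not tested.

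The difference of differences was tested in 1 model over the 3 cell types of the 4 libraries, with the library as a block, since its sums come from the same mouse. From NP to PI *Tpm2* fell less in basal cells than in luminal progenitors, by 1.34 ± 0.34, adjusted p = 0.0186, on the log2 scale, as the only member called, against 1.94% of all genes in that direction and 5.17% in either. Against hormone-sensing cells, *Acta2* (1.52 ± 0.33, adjusted p = 0.00613), *Cnn1* (2.10 ± 0.60, adjusted p = 0.0394) and *Tpm2* (1.69 ± 0.36, adjusted p = 0.00471) had a difference closer to 0 in basal cells, where *Cnn1* itself had not passed, against 2.05% of all genes in that direction and 4.53% in either. Without NP1, *Acta2* (1.03, adjusted p = 0.0886) and *Cnn1* (1.58, adjusted p = 0.0859) were no longer called, *Cnn1* was not called without PI2 (2.47, adjusted p = 0.192), and *Tpm2* against luminal progenitors was not called without PI1 (0.59, adjusted p = 0.194).

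Genes of the steps that link the receptor to the motor were taken from a list of their own. Of 17 tested genes for Gq, phospholipase C, the inositol trisphosphate receptors and calmodulin, 7 were higher and 1 lower in G than in NP, 9 were higher and 3 lower in L than in G, 1 was higher and 7 were lower in PI than in L and 1 was higher and 0 lower in PI than in NP. *Rgs2*, which turns Gq off, measured 25.9 and 29.6 CPM in NP, 105 and 83.5 CPM in G, 307 and 284 CPM in L, and 105 and 89.6 CPM in PI, rose at both steps (1.86 ± 0.17 and 1.78 ± 0.15) and was higher in PI than in NP (1.64 ± 0.29, adjusted p = 0.00269). *Gnaq*, the Gq subunit itself, rose from NP to G by 1.16 ± 0.16, and *Plcb1*, the phospholipase that Gq activates, rose from G to L by 2.91 ± 0.21. *Itpr2*, an inositol trisphosphate receptor, was lower in L than in G (-1.30 ± 0.25). The list also holds *Rgs5*, which is one of the pericyte markers.

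Calcium sensitisation is the way in which the myosin phosphatase and its regulators set how much force a given calcium level yields. Of its 14 genes, all tested, 4 were higher and 3 lower in G than in NP, 9 were higher and 0 lower in L than in G, 0 were higher and 7 lower in PI than in L and 0 were higher and 1 lower in PI than in NP. *Ppp1r14a*, the phosphatase inhibitor CPI-17, measured 6.58 and 10.9 CPM in NP, 98.8 and 58.8 CPM in G, 761 and 601 CPM in L, and 17.5 and 22.4 CPM in PI. It rose by 3.34 ± 0.29 from NP to G and by 3.24 ± 0.21 from G to L on the log2 scale, and was lower in PI than in L (-5.36 ± 0.40). *Ppp1r12b*, a targeting subunit of the phosphatase, rose by 2.86 ± 0.18 from G to L.

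For calcium handling and channels, 12 of 16 genes passed the filter, of which 9 were higher and 0 lower in G than in NP, 7 were higher and 4 lower in L than in G, 0 were higher and 6 lower in PI than in L and 1 was higher and 0 lower in PI than in NP. *Itpkb*, a kinase that consumes inositol trisphosphate, measured 8.23 and 19.6 CPM in NP, 69.7 and 76.1 CPM in G, 103 and 119 CPM in L, and 52.5 and 76.8 CPM in PI, with log2 differences of 2.61 ± 0.26 from NP to G and 2.33 ± 0.46 from NP to PI. *Kcnmb1*, a subunit of the large calcium-activated potassium channel of smooth muscle, measured 13.9 and 11.8 CPM in NP, 56.6 and 44.9 CPM in G, 115 and 98 CPM in L, and 17.5 and 0 CPM in PI, with a rise of 2.03 ± 0.23 from NP to G. The plasma membrane calcium pumps went opposite ways from G to L, *Atp2b4* at 2.98 ± 0.25 and *Atp2b1* at -1.27 ± 0.15.

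Of the 15 other filament and adhesion genes of smooth muscle, all of them tested, 7 were higher and 0 lower in G than in NP, 13 were higher and 0 lower in L than in G, 0 were higher and 13 lower in PI than in L and 0 were higher and 4 lower in PI than in NP. *Synpo2*, synaptopodin 2, measured 9.87 and 13.2 CPM in NP, 45 and 28.3 CPM in G, 510.5 and 458 CPM in L, and 52.5 and 25.6 CPM in PI and had the smallest p-value of the list from G to L (3.86 ± 0.20, adjusted p = 3.18e-10). *Cald1*, caldesmon, which binds actin and myosin, measured 1988 and 2051 CPM in NP, 3261 and 2938 CPM in G, 6502 and 6159 CPM in L, and 1320.1 and 1359 CPM in PI, and was lower in PI than in L (-2.60 ± 0.14) and than in NP (-0.75 ± 0.14, adjusted p = 0.00442). *Pgm5* and *Lpp*, of smooth muscle adhesion sites, rose from NP to G by 2.38 ± 0.26 and 1.38 ± 0.14. For the share of each list, the background over all genes is that given above for each comparison, and *Ppp1r12b* counts in both lists that hold it.

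The genes whose pattern was most like that of the receptor were searched over the 35 library and cluster sums of C1 to C15, among 9761 genes at 20 CPM or more in at least 1 sum, by Pearson's r of log2(CPM + 1). For *Oxtr* the 5 highest were *Gas1* (0.956), *Gpsm2* (0.919), *Trnp1* (0.913), *Ttc7b* (0.902) and *Fmod* (0.898). *Gas1* averaged 103 CPM in NP basal sums, 169.7 CPM in G, 546 CPM in L and 21.5 CPM in PI. For the mean of the other 9 genes the 5 highest were *Jph2* (0.965), *Sobp* (0.962), *Nexn* (0.961), *Rcn3* (0.958) and *Bgn* (0.957). Among the 10 genes themselves r ran from 0.807 for *Oxtr* with *Lmod1* to 0.984 for *Myh11* with *Myl9*. The sums share libraries and depth, and they include both basal and luminal clusters, so the values are descriptions with no test.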

How the data were processed

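Single-cell libraries were prepared on the 10x Chromium from sorted EpCAM+ cells, with doublets gated out at the sort, and sequenced on an Illumina HiSeq instrument. The authors processed reads with Cell Ranger (STAR, mm10, versions not given in the sources used here), with no normalisation between libraries, and deposited raw UMI counts per gene and cell for each library, as whole numbers. Their deposited annotation gives the library, quality flag, total UMI count and cluster of each cell, and these clusters were used as they stand. The sources used here do not state whether counting used strand, so genes that overlap on opposite strands are uncertain. The authors excluded a doublet cluster and no doublet caller was run again. One combined copy of the counts was not used. The members and lists were chosen with earlier results of these data known.

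Matrix barcodes were joined to the annotation (25009 passing cells, with 1 annotated cell of PI2 unmatched). UMIs were summed per library over C12 to C14 (basal), C6 and C7 (luminal progenitors) and C3 and C4 (differentiated hormone-sensing cells), and per cluster where a library had 20 or more cells. Depth per library is given with the results, and it sets the precision of a value through its UMIs, with Poisson and Clopper-Pearson 95% intervals for counting error only. Counts were tested in R 4.3.3 with edgeR 4.0.16 (TMM, filterByExpr, quasi-likelihood test, 1 fit over all 4 stages for basal cells, an interaction term with library as a block over 4 libraries for cell types, adjusted p under 0.05), with 4 residual degrees of freedom, or 2 in the separate luminal fits. The ± values are standard errors of log2 differences taken from the test statistic. Gene positions are from GENCODE M21 by gene ID, promoters from RefSeq on GRCm38.p6. Counts were simulated with gene means pooled over all libraries of the cell set, at the depth of each library. The changed genes were drawn only from those above a minimum number of UMIs. With changes put into L, 99% of 4-fold changes were called against G and 3.33% of calls were false, over 11555 genes. With changes put into PI, 58% of 4-fold changes and 4% of 2-fold changes were called against NP, over 11601 genes.

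Named were all 10 members and, per pathway list and comparison, the 2 called genes with the smallest p in each direction, as well as the 5 genes with the highest correlation to each pattern. From these, the genes given with values in every library were picked after their values were seen. Alternatives were DESeq2 1.42.0, RLE factors, totals without milk protein genes, no filter, a test against a 2-fold change at a false discovery rate of 0.01, a replicate block, only the 2 stages compared, the main basal cluster alone, basal cells with keratin UMIs, 28 basal cells per library, other minimum cell numbers, no thinning or 2000 UMIs, and each mouse left out.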

Additional observations from a re-analysis of the deposited data

Results flagged for a closer look

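For 3 of the genes the difference between PI and NP was not the same size in basal and in luminal cells by the interaction test, in 4 results. *Tpm2* differed by 1.34 on the log2 scale between basal cells and luminal progenitors (adjusted p = 0.0186) and by 1.69 between basal cells and differentiated hormone-sensing cells (adjusted p = 0.00471). *Acta2* differed by 1.52 (adjusted p = 0.00613) and *Cnn1* by 2.1 (adjusted p = 0.0394) between basal and hormone-sensing cells. In each case the difference was closer to 0 in basal cells, where that of *Cnn1* had not passed (-0.63, adjusted p = 0.113) and *Tpm2* measured 2826 and 2827 CPM in NP and 1941 and 1977 CPM in PI. In hormone-sensing cells *Cnn1* rested on 2 and 9 UMIs in PI. The share of basal cells in the suspension was 23.7% and 14.2% in NP and 1.94% and 1.43% in PI, and its part in these luminal values was not tested.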

How the results depend on the processing

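Of the log2 differences of single members, 766 values under the alternatives kept direction and side of the threshold, 49 lost their call, 5 gained one and 6 changed sign. Of counts and levels, 293 values stayed within the tolerance and 51 moved. The sign changes were of differences that did not pass: *Oxtr* from NP to G from -0.0331 without NP1 to 0.487 without NP2, *Mylk* from NP to PI at 0.17 with equal cell numbers, and *Myl9* from NP to PI at -0.0119 with no filter, -0.18 in the main cluster, -0.00274 without NP1 and -0.27 without PI1, up to 0.32 without PI2. Against a 2-fold change at a false discovery rate of 0.01, 3 members were higher in G than in NP (479 genes in all), 6 in L than in G (901), 1 was lower in PI than in NP (18), and 586 genes in all differed between PI and L. In the same test 0 members (231 genes) were lower in PI luminal progenitors, 2 (121) in hormone-sensing cells, and 0 (40) and 0 (39) by interaction. These fall as the threshold is stricter. With 28 basal cells per library, 668 genes were called for G against NP, 677 for L against G, 1084 for PI against L and 200 for PI against NP, 3 of the members lower in the last. With no filter, 877 genes were called for PI against NP against 530 with it, and 1 member was lower by interaction with luminal progenitors. DESeq2 called 0 members lower (1471 genes against 2892) in luminal progenitors and 1141 genes against 1714 in hormone-sensing cells. At an unadjusted p under 0.05, edgeR had 2 of the 8 tested members in luminal progenitors, against 4235 of all 10766 genes tested there. The cause was not tested. The *Oxtr* share of basal cells, at 1000 UMIs 6.29% for NP, 7.24% for G, 45.5% for L and 2.54% for PI, was in that order 27.2%, 34.2%, 84.4% and 5.18% unthinned and 10.9%, 12.3%, 67.5% and 1.69% at 2000 UMIs.

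Leaving out each mouse gave 6 to 8 members higher in G than in NP (2558 to 5012 genes in all, the lowest without NP1), all 10 higher in L (4079 to 6224), all 10 lower in PI than in L (1068 to 3244, the lowest without PI2) and 3 to 6 lower in PI than in NP (106 to 713, the lowest without PI2, 321 without NP1 and 303 without NP2). In luminal progenitors it gave 1 to 3 lower and 0 to 1 higher (1704 to 2472, the lowest without NP1), in hormone-sensing cells 4 to 6 lower (928 to 2458, the lowest without NP2 and 1107 without NP1), by interaction with luminal progenitors 0 to 1 higher and 0 to 4 lower (359 to 629, the lowest without NP1 and 391 without PI2, the 4 lower without PI1), and by interaction with hormone-sensing cells 1 to 4 higher (247 to 652, the lowest without PI2 and 321 without NP2). Where 1 mouse remained in a stage, it was assumed to vary like the others.

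Mice of different stages share only a replicate number. Their deviations from the stage means correlated at -0.04 to 0.02 over 11870 genes, so the numbers do not pair them. With a replicate block, *Lmod1* was not called between G and NP (0.37, adjusted p = 0.0543), and every other member call of the 4 basal comparisons was kept. In the simulation 2-fold changes were mostly missed in each comparison tried, with 17% called for L against G, 4% for PI against NP in basal cells and 16% for PI against NP in luminal progenitors. Changes of 4-fold were called at 99%, 58% and 99%. The simulated dispersion was set at 0.05, larger than that fitted to the data. The square root of the fitted common dispersion was 0.122 in basal cells and 0.11 in luminal progenitors. The simulated shares hold for that setting alone and do not give the power of the tests on the data.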

Other observations

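The counts of the gene lists below are to be read against all genes tested in basal cells, of which 39.9% passed in either direction for G against NP, 50.1% for L against G, 27.6% for PI against L and 4.47% for PI against NP. Of 11 tested cytoplasmic relatives of the contractile genes, 3 were higher and 2 lower in G than in NP, 3 were higher and 3 lower in L than in G, 2 were higher and 4 lower in PI than in L and 0 were higher and 2 lower in PI than in NP. *Actb*, cytoplasmic beta-actin, measured 2643 and 2732 CPM in NP, 3554 and 2560.0 CPM in G, 5884 and 5052 CPM in L, and 1644 and 1583 CPM in PI, and rose by 0.97 ± 0.15, adjusted p = 7.18e-05, from G to L. *Myl6*, an essential myosin light chain used by muscle and non-muscle myosin, rose by 1.39 ± 0.14 over the same step and was lower in PI than in NP (-0.95 ± 0.15, adjusted p = 8.49e-04). *Myh9*, the non-muscle myosin heavy chain, measured 220.0 and 227 CPM in NP, 288 and 361 CPM in G, 111 and 128 CPM in L, and 184 and 239.9 CPM in PI, and was lower in L than in G (-1.31 ± 0.15, adjusted p = 2.33e-06). *Tagln2*, the relative of *Tagln*, was lower in G than in NP (-1.03 ± 0.15) and higher in PI than in L by 0.79 ± 0.17.

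Of 8 tested regulators around serum response factor (of 10), 3 were higher and 0 lower in G than in NP, 2 were higher and 2 lower in L than in G, 1 was higher and 2 were lower in PI than in L and 1 was higher and 0 lower in PI than in NP. *Fhl2*, a cofactor of serum response factor, measured 341 and 307 CPM in NP, 309 and 379.5 CPM in G, 79.3 and 71.1 CPM in L, and 166 and 253 CPM in PI, lowest in L, where it was lower than in G (-2.07 ± 0.16, adjusted p = 2.45e-08). *Srf* itself was lower in PI than in L (-1.55 ± 0.33, adjusted p = 0.00194). *Klf4*, a zinc-finger factor that opposes smooth muscle genes, measured 226 and 199 CPM in NP, 268 and 220.2 CPM in G, 448 and 501 CPM in L, and 525 and 592 CPM in PI, and was higher in PI than in NP by 1.26 ± 0.17, adjusted p = 3.91e-04.

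Of 7 tested receptors of contractile cells other than *Oxtr* (of 14), 2 were higher and 1 lower in G than in NP, 1 was higher and 4 were lower in L than in G, 2 were higher and 0 lower in PI than in L and 1 was higher and 0 lower in PI than in NP. *Agtr1a*, an angiotensin receptor, measured 23.3 and 29.6 CPM in NP, 0.503 and 1.8 CPM in G, 2.32 and 0.301 CPM in L, and 0 and 44.8 CPM in PI, and was lower in G than in NP (-4.37 ± 0.70). *P2ry1*, a receptor for extracellular nucleotides, measured 19 and 12.3 CPM in NP, 11.3 and 16.4 CPM in G, 0.757 and 1.2 CPM in L, and 17.5 and 3.2 CPM in PI, and was lower in L than in G (-3.70 ± 0.37). *Avpr1a*, the vasopressin receptor closest to *Oxtr*, was called higher in PI than in NP, on 1 and 6 UMIs in PI and 1 and 0 in NP.

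Of 9 genes of the relaxation pathway, all tested, 6 were higher and 0 lower in G than in NP, 6 were higher and 2 lower in L than in G, 0 were higher and 5 lower in PI than in L and 1 was higher and 0 lower in PI than in NP. *Gucy1b3*, a subunit of the nitric oxide receptor guanylate cyclase, measured 3.29 and 1.37 CPM in NP, 36 and 26.9 CPM in G, 50.9 and 40.3 CPM in L, and 8.74 and 12.8 CPM in PI, and rose by 3.66 ± 0.33, adjusted p = 4.31e-07, from NP to G. Its partner *Gucy1a3* measured 0.47 and 0 CPM in NP, 29.2 and 15.7 CPM in G, 86.8 and 52.8 CPM in L, and 52.5 and 9.6 CPM in PI, on 2 and 0 UMIs in NP and 6 and 3 in PI. *Mrvi1*, a target of the cyclic GMP kinase at the calcium store, measured 16.5 and 20.0 CPM in NP, 34.2 and 28.5 CPM in G, 90.5 and 73.2 CPM in L, and 26.2 and 6.4 CPM in PI, and rose from G to L by 1.52 ± 0.18, adjusted p = 2.88e-06.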
